A study of Mus musculus with 6 samples.

Results

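Oxidative phosphorylation transcripts were measured by bulk RNA sequencing of primary hepatocytes from alcohol-fed mice of 2 genotypes. The set held every row of the deposited gene table whose name starts with Nduf, Uqcr or Atp5, or with Cox followed by 4 to 8, together with Sdha to Sdhd, Cyc1 and the mitochondrial genes mt-Nd, mt-Co, mt-Cytb and mt-Atp, leaving out names that contain -ps. It came to 106 of 25718 genes, of which 93 are encoded in the nucleus and 13 in mitochondrial DNA. The 93 nuclear rows comprised 77 subunits made in most tissues, 8 complex I assembly factors (Ndufaf) and 4 tissue-restricted isoforms. The others were 3 rows listed as processed pseudogenes (Ndufb4c, Ndufs6b and Cox6c2) and the supercomplex factor Cox7a2l. Of 11 names with -ps that were left out, 2 are listed as protein coding, Cox5b-ps and Ndufb1-ps.

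The study compared 3 libraries from wild-type (WT) mice with 3 libraries from mice that carry 1 deleted S100a16 allele (S100a16KO+/-), and asked how this deficiency alters the liver's answer to alcohol. The deletion removes exons 2 and 3 of S100a16, a calcium-binding protein, through EIIa-Cre, which acts in the early embryo and so affects all tissues. Mice without either allele did not survive, and the sample labels call the genotype a knockdown. All mice were males of 8 to 10 weeks on a C57BL/6 background that received a liquid control diet for 5 days, a diet with 5% ethanol for 10 days and a single gavage of ethanol at 5 g/kg, and were killed 9 h later. No mouse without alcohol was sequenced in the libraries analysed here. The labels do not state that the 3 libraries of a genotype came from separate mice, so the p-values measure the spread between these libraries, which may be in part technical.

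Oxidative phosphorylation is carried out by 5 protein complexes of the inner mitochondrial membrane. Complexes I and II pass electrons from NADH and succinate to coenzyme Q, complex III passes them on to cytochrome c, complex IV hands them to oxygen, and complex V uses the resulting proton gradient to make ATP. Most subunits are encoded in the nucleus and imported, while a small group at the heart of complexes I, III, IV and V is read from the circular mitochondrial genome, whose strands are transcribed as long precursors and then cut. Hepatocytes are rich in mitochondria, and NADH from ethanol breakdown enters this chain.

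Each library held between 67658095 and 71807834 estimated counts, of which about 4 correspond to 1 sequenced fragment, since 4 was the most frequent low value (936 genes in WT library 1, against 561 genes at 3 and 259 at 5). S100a16 itself had 1001, 1056 and 1107 counts in WT and 433, 390 and 366 in S100a16KO+/- libraries, which left 38.0% of the WT level (log2 fold change -1.40, SE 0.11, edgeR adjusted p = 4.14e-07). Summed markers of hepatocytes stood at 111910 to 114918 CPM (counts scaled to a common library total) in WT and 112029 to 113484 in S100a16KO+/- libraries, with 1 of 6 markers called higher and 1 lower. Other cell types did move with genotype. Sinusoidal endothelial markers rose from 155 to 169 CPM in WT to between 218 and 233 in S100a16KO+/- libraries (4 of 5 called higher, 1 lower), stellate cell markers from 35.7 to 36.3 to between 65.2 and 66.3 (3 of 5 higher), and erythroid markers fell from between 221 and 244 to between 24.4 and 24.9 (5 of 5 lower). Macrophage markers summed to 72.2 to 95.4 in WT and 83.8 to 98.9 in S100a16KO+/- libraries, with 2 of 5 called higher. Cholangiocyte markers (1 of 4 tested called lower) and lymphocyte and neutrophil markers (1 of 6 called lower) stayed at or below 6.11 CPM in every library. The part of these shifts in the results that follow was not tested, and in bulk RNA fewer cells of a type and less RNA per cell cannot be told apart.

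Nuclear-encoded transcripts of oxidative phosphorylation were lower in S100a16KO+/- hepatocytes by small amounts, and mitochondrially encoded transcripts did not pass the test. Of 92 nuclear members with enough counts to test, 31 (33.7%) were called lower at an adjusted p under 0.05 and 0 higher, whereas 11.2% of all 15957 genes tested were called lower, 11.6% higher and 22.8% in either direction. Of the nuclear members 89 had a log2 fold change below 0, against 49.4% of all genes. The median log2 fold change of nuclear members was -0.19, with a median of 0.01 over all genes. Apart from the scarce isoform Cox6b2, the called members kept between 74.6% and 90.1% of the WT level. Levels in all 3 S100a16KO+/- libraries lay below all 3 WT libraries for 49 nuclear members and above them for 1, Cox7a2l, against 18.6% and 19.2% of all genes tested. Among the 13 mitochondrially encoded members, 0 were called by edgeR and 0 had an unadjusted p under 0.05. Libraries separated by genotype in CPM for 0 of them, although all 13 log2 fold changes were below 0, with a median of -0.06. DESeq2 called 2 of the 13, mt-Nd5 and mt-Nd6, at a background of 12.1% of genes called lower. Standard errors were wider for the mitochondrial group, at a median of 0.13 on the log2 scale against 0.07 for nuclear subunits, so a change of the nuclear size was not excluded by these data.

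**Figure D1:**
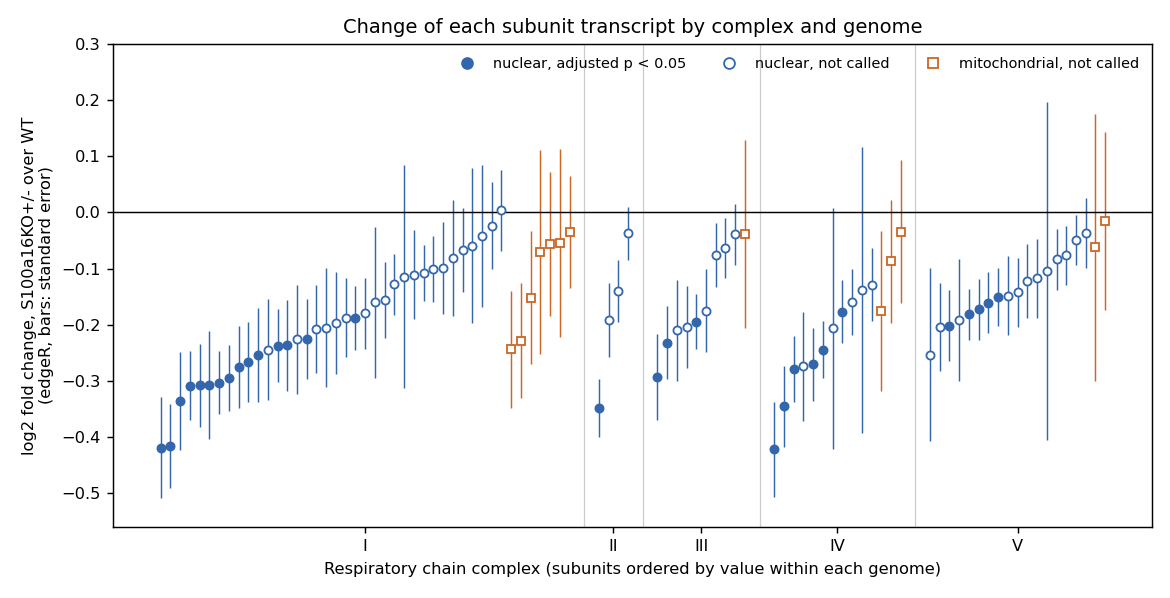
Log2 fold change of S100a16KO+/- over WT (y axis) for each of 77 nuclear and 13 mitochondrially encoded subunit transcripts, grouped by complex on the x axis. Points are edgeR estimates from 3 libraries per genotype and bars are standard errors. Filled circles are nuclear subunits called at an adjusted p under 0.05, and these lie below 0 in all 5 complexes, whereas 0 of 13 mitochondrial squares are filled.

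The count of nuclear calls moved with single libraries. It was 14 without WT replicate 3 and 20 without S100a16KO+/- replicate 3, and lay between 21 and 27 when any one of the other libraries was left out, and 0 members were called higher in any of these fits. Of the 31 calls, 13 were made in every such fit, namely Ndufab1, Ndufb3, Ndufc2, Ndufs1, Ndufs4, Ndufs5, Sdhd, Cox4i1, Cox5a, Cox6b1, Cox6b2, Cox7c and Cox8a, and the other 18 missed the threshold in at least 1 of them. Scaling by total counts in place of TMM, edgeR's trimmed mean of M-values, gave 17 nuclear calls, all lower. By the rule of a fold change of at least 2 with an unadjusted p under 0.05, which 4.52% of all genes passed, 1 nuclear member (Cox6b2) was selected and 0 mitochondrial ones.

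Complex I, the NADH dehydrogenase that is the largest of the chain, had 15 of 36 nuclear subunits called lower. The median log2 fold change of the 36 was -0.20. Calls were made for 2 of 7 core subunits, which hold the flavin and the iron-sulfur clusters, and for 13 of 29 accessory subunits, which surround that core. The most reduced of them were Ndufb3, Ndufs5 and Ndufb8, all accessory subunits.

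Ndufs5 had 1843, 1781 and 1886 counts in WT libraries and 1443, 1208 and 1456 in S100a16KO+/- libraries. Every S100a16KO+/- library lay below every WT library, and the mean fell from 26.6 ± 1.17 to 19.9 ± 1.04 CPM (SD, n = 3; log2 fold change -0.42, SE 0.08, adjusted p = 0.001). Ndufb3 had 1400, 1550 and 1578 counts in WT and 1237, 947 and 1185 in S100a16KO+/- libraries (log2 fold change -0.42, SE 0.09, adjusted p = 0.00369). The groups were again apart, with S100a16KO+/- replicate 2 the lowest of all 6. Ndufb8 had 3798, 3252 and 3490 counts against 2574, 2952 and 2740 (log2 fold change -0.34, SE 0.09, adjusted p = 0.0134), and its exons overlap those of a gene on the same strand, so reads may have been shared. It lost its call when 1 library was left out (adjusted p up to 0.0674).

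The nuclear-encoded complex I subunit with the highest FPKM (fragments scaled by exon length and by the fragments of the library) was Ndufb9. Its mean was 82.3 ± 8.82 in WT and 68.9 ± 8.69 in S100a16KO+/- libraries. It had 6059, 6572 and 7032 counts in WT and 5520, 4651 and 6105 in S100a16KO+/- libraries, with an overlap in raw counts that the library scaling removed (88.7, 93.4 and 102.8 against 79.7, 72.4 and 84.8 CPM). Its log2 fold change was -0.27 (SE 0.07, adjusted p = 0.0135, up to 0.0832 with 1 library left out), and its exons also overlap a gene on the same strand. Among the core subunits, Ndufs1, which carries electrons through 3 iron-sulfur clusters, fell from 6665, 6835 and 6936 counts to 5959, 4771 and 5678 (log2 fold change -0.31, SE 0.06, adjusted p = 0.00209). Ndufv2, another iron-sulfur subunit, was the other called member (log2 fold change -0.19, adjusted p = 0.0287). Ndufs3 (-0.10, adjusted p = 0.255), Ndufv1 (-0.06, adjusted p = 0.822), Ndufs7 (-0.02, adjusted p = 0.872) and Ndufs8 (0.00, adjusted p = 0.978) were not called. Ndufs8 had 1863, 2111 and 2201 counts in WT against 2105, 1878 and 2167, with full overlap of the genotypes.

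Assembly factors of complex I, which build the enzyme and do not remain in it, gave 0 calls among 8 members, with 4 at an unadjusted p under 0.05, as were 33.6% of all genes tested, and 7 with a log2 fold change below 0. Ndufaf5, a methyltransferase-like factor, had the lowest value, with 167, 178 and 156 counts in WT against 107, 92 and 151 (log2 fold change -0.51, SE 0.22, adjusted p = 0.109). Ndufaf6 lay above 0, with 376, 412 and 345 counts in WT against 393, 402 and 531 (log2 fold change 0.23, SE 0.14, adjusted p = 0.266). Libraries of the genotypes overlapped for Ndufaf6 and were apart for Ndufaf5.

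Complex II, succinate dehydrogenase, is wholly nuclear-encoded and links the citric acid cycle to the chain. Its 4 subunits differed in how far they moved. Sdhd, a membrane anchor that helps to bind coenzyme Q, had 10146, 10130 and 10131 counts in WT libraries and 8246, 7207 and 8266 in S100a16KO+/- libraries. It fell to 78.5% of WT, from 147 ± 2.55 to 115 ± 3.47 CPM (SD, n = 3; log2 fold change -0.35, SE 0.05, adjusted p = 1.71e-04), and the fall was called in every alternative fit (adjusted p up to 0.00637). Sdha, the flavoprotein that oxidises succinate, had 18405, 18852 and 18632 counts in WT and 18440, 16539 and 19116 in S100a16KO+/- libraries. After scaling it was apart by genotype, at 269.5, 267.8 and 272.2 against 266.1, 257.3 and 265.4 CPM, as were all 4 subunits. Sdha changed by a log2 fold change of -0.04 (SE 0.05, adjusted p = 0.644), and the iron-sulfur subunit Sdhb (-0.19, adjusted p = 0.0526) and the other anchor Sdhc (-0.14, adjusted p = 0.0915) lay between these values without passing the threshold.

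A ratio of both transcripts within a library does not depend on library scaling. Sdhd over Sdha in FPKM was 1.85, 1.80 and 1.82 in WT and 1.50, 1.46 and 1.45 in S100a16KO+/- libraries. The genotypes did not overlap in this ratio, and the spread within a genotype was small beside the gap between them. The pair was chosen after its values were seen, so no test is given.

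Complex III, the cytochrome bc1 complex, had 3 of 9 nuclear subunits called lower, with a median log2 fold change of -0.19. Uqcrb, a subunit at the site where coenzyme Q binds, had 4501, 4815 and 4882 counts in WT and 3972, 3962 and 3516 in S100a16KO+/- libraries (log2 fold change -0.29, SE 0.08, adjusted p = 0.0127). Uqcrfs1, the Rieske iron-sulfur protein and the nuclear-encoded complex III subunit with the highest FPKM (74.3 ± 6.55 in WT, 63.7 ± 7.45 in S100a16KO+/-), had 7329, 8112 and 8033 counts against 7303, 5770 and 6791 (log2 fold change -0.23, SE 0.07, adjusted p = 0.0198). Uqcrc2, a core protein of the matrix side, had 12777, 12904 and 12899 counts against 11565, 10146 and 11786 (log2 fold change -0.19, SE 0.05, adjusted p = 0.0111). All 3 genes were apart by genotype after scaling, and each missed the threshold in at least 1 fit without a library, at adjusted p values up to 0.0623, 0.0891 and 0.0509. Cyc1, the cytochrome c1 that receives electrons from Uqcrfs1, changed by -0.06 (SE 0.05, adjusted p = 0.465), and Uqcrc1, the partner of Uqcrc2, by -0.04 (SE 0.05, adjusted p = 0.681).

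Complex IV, cytochrome c oxidase, had the largest share of nuclear subunits called, 6 of 11, and the lowest median log2 fold change among the 5 complexes, -0.24. Cox8a, a small membrane subunit, had 10651, 9168 and 9445 counts in WT and 6969, 7658 and 6980 in S100a16KO+/- libraries. It fell to 74.6% of WT, from 141 ± 13.2 to 106 ± 11.9 CPM (SD, n = 3; log2 fold change -0.42, SE 0.08, adjusted p = 0.0029). Cox6b1, which faces the intermembrane space and joins the monomers of the enzyme, had 4897, 4600 and 5573 counts against 4063, 3634 and 4092 (log2 fold change -0.35, SE 0.07, adjusted p = 0.00307). Cox5a, on the matrix side, had 5483, 6121 and 6224 counts against 4888, 4568 and 5129 (log2 fold change -0.28, SE 0.06, adjusted p = 0.00304). For all 3 the S100a16KO+/- libraries lay below the WT libraries without overlap.

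Cox6a1 had the highest FPKM of all nuclear members, at 252 ± 14.1 in WT and 210 ± 16.3 in S100a16KO+/- libraries. This rank depends on the joined exon length, 702 bases here against 4237 for Atp5b. In CPM Atp5b stood higher in WT, at 725 against 199. Cox6a1 is the liver form of a subunit that has a separate heart and muscle form. Its counts were 15189, 13015 and 12991 in WT and 10514, 12149 and 11019 in S100a16KO+/- libraries, and after scaling S100a16KO+/- replicate 2, at 189.0 CPM, lay above WT replicate 2, at 184.9. The log2 fold change of -0.27 (SE 0.10) did not pass the test (adjusted p = 0.0743). The call for Cox6a1 depended on the fit, as it was made with DESeq2 (adjusted p = 0.00833), with total counts only (0.0232), by limma on FPKM (0.0213 and 0.0216 by pseudocount), without S100a16KO+/- replicate 2 (0.00144) and with 2 libraries per genotype (2.07e-04), and missed in the other fits. Cox4i1, the general form of the largest nuclear subunit, had 16739, 16983 and 17362 counts against 14776, 13579 and 14419 (log2 fold change -0.24, SE 0.05, adjusted p = 0.00271). Cox7c and Ndufa4, a protein first assigned to complex I and now placed in complex IV, were the other called subunits (log2 fold changes -0.27 and -0.18, adjusted p = 0.00762 and 0.0354).

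Isoforms of complex IV that are made mainly in other tissues were scarce here. Cox6b2, the testis form of Cox6b1, had 49, 64 and 57 counts in WT and 9, 4 and 14 in S100a16KO+/- libraries, and the genotypes did not overlap (log2 fold change -2.64, SE 0.51, adjusted p = 0.00175). These counts correspond to about 42 fragments in the 3 WT libraries together and 7 in the S100a16KO+/- libraries, a ratio of 16.7% with an exact 95% interval from 6.32% to 37.4% that covers counting error only. Cox7a1, the heart and muscle form of Cox7a2, had 34, 11 and 17 counts against 19, 13 and 0 (log2 fold change -0.92, adjusted p = 0.555), and Ndufa4l2, a hypoxia-induced relative of Ndufa4, had 41, 57 and 112 counts against 27, 67 and 53 (log2 fold change -0.49, adjusted p = 0.493). Cox4i2, the lung form of Cox4i1, was at 0 in 5 libraries and at 7 counts in S100a16KO+/- replicate 2, too few to test. Cox7a2l, classed here as a supercomplex factor, was the only member with all S100a16KO+/- libraries above all WT libraries, at 3370, 3573 and 3598 counts in WT against 3966, 3519 and 4123, 49.3, 50.8 and 52.6 against 57.2, 54.8 and 57.2 CPM. Whether it acts on supercomplexes in these mice was not tested. Its log2 fold change of 0.15 (SE 0.06) had an adjusted p of 0.0714. The 3 rows listed as processed pseudogenes gave 0 calls, with log2 fold changes from -0.31 for Ndufs6b to -0.11 for Cox6c2. Reads they share with the parent genes could not be separated here.

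Complex V, the ATP synthase, had 5 of 17 subunits called lower and the median closest to 0, -0.15. Atp5a1 and Atp5b form the catalytic head of the enzyme in equal numbers. In WT they stood at 153 ± 7.37 and 153 ± 5.49 FPKM, but at 537 ± 5.94 and 725 ± 6.41 CPM. The likeness in FPKM depends on the joined exon lengths it divides by, 3135 and 4237 bases, and is not read as equal levels. Atp5a1 had 36470, 37524 and 37218 counts in WT and 32975, 29455 and 35003 in S100a16KO+/- libraries (log2 fold change -0.18, SE 0.05, adjusted p = 0.0104, up to 0.0573 with 1 library left out). Atp5b had 49945, 50578 and 49553 counts against 48540, 46049 and 49265 (log2 fold change -0.05, SE 0.04, adjusted p = 0.493). Both were apart by genotype after scaling, at 534.0, 533.1 and 543.8 against 475.9, 458.3 and 486.0 CPM for Atp5a1, and 731.3, 718.6 and 724.1 against 700.5, 716.5 and 684.0 for Atp5b.

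Atp5g1, one of 3 genes for the ring that turns with the proton flow, had 4813, 4513 and 4618 counts against 4062, 3512 and 4492 (log2 fold change -0.20, SE 0.06, adjusted p = 0.0336). The mature ring protein is the same from all 3 genes, and Atp5g2 (log2 fold change -0.12, adjusted p = 0.212) and Atp5g3 (-0.25, SE 0.15, adjusted p = 0.33) were not called. Atp5j2, Atp5o and Atp5pb, parts of the membrane sector and of the stalk that holds the head in place, were the other called subunits, with log2 fold changes of -0.17, -0.16 and -0.15 and adjusted p values of 0.0327, 0.0474 and 0.0488. Atp5j2 had 4901, 4884 and 5081 counts against 4370, 4129 and 4593. With 1 library left out, Atp5g1 and Atp5j2 missed the threshold at adjusted p values up to 0.12 and 0.134.

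**Figure D2:**
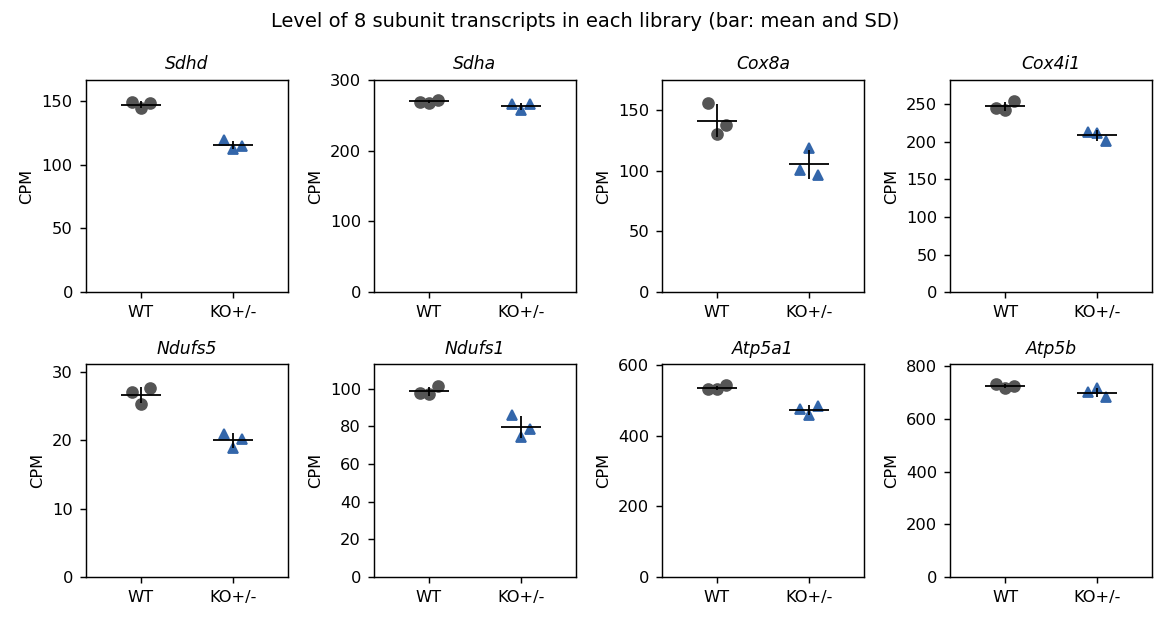
CPM after TMM scaling (y axis, from 0) of 8 nuclear-encoded subunits in each of 3 WT (circles) and 3 S100a16KO+/- (triangles, KO+/-) libraries, with mean and SD. Sdhd fell from 147 to 115 while Sdha stayed at 97.4% of WT, and Atp5a1 fell to 88.2% of WT while Atp5b stayed at 96.6%.

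Summed over all nuclear members, the level was 7098, 7051 and 7386 CPM in WT and 6522, 6272 and 6413 in S100a16KO+/- libraries. The sum fell to 89.2% of WT without overlap between genotypes, and to 87.8% in FPKM, again without overlap (3510, 3750 and 3911 against 3382, 3040 and 3386). By complex, the nuclear subunits of S100a16KO+/- libraries summed to 84.3% of WT for complex IV, 87.8% for complex I, 90.1% for complex III, 90.2% for complex II and 91.8% for complex V. In CPM all 5 sums were apart by genotype, whereas in FPKM the sums of complexes I, III and V overlapped. WT replicate 1 was the lowest WT library in FPKM in each of these 3 sums.

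The mitochondrially encoded part of the same complexes overlapped between genotypes throughout. It summed to 98.2% of WT for complex V, 97.4% for complex III, 92.3% for complex I and 90.2% for complex IV in CPM. The 13 genes took 20.8%, 18.1% and 18.3% of all counts in WT libraries and 16.7%, 19.7% and 16.8% in S100a16KO+/- libraries. Replicate 2 of S100a16KO+/- thus lay above WT replicates 2 and 3, and WT replicate 1 was the highest of all.

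**Figure D3:**
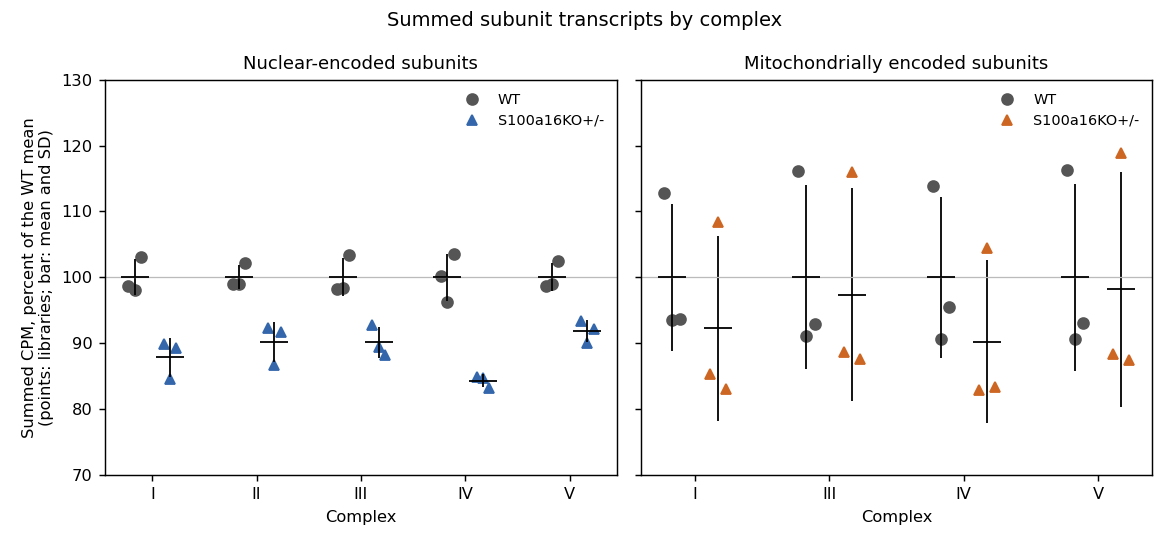
Summed CPM of the nuclear subunits (left) and of the mitochondrially encoded subunits (right) of each complex, as percent of the WT mean on the y axis, which starts at 70. Points are libraries (circles WT, triangles S100a16KO+/-) and bars are mean and SD. Nuclear sums of the genotypes do not overlap in any of the 5 complexes, while on the right WT replicate 1 and S100a16KO+/- replicate 2 lie above the other 4 libraries.

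Per length, mitochondrial transcripts were far more abundant than nuclear ones, and their summed FPKM exceeded that of the nuclear members by 53.2, 43.3 and 42.1 times in WT and by 44.4, 59.2 and 44.8 times in S100a16KO+/- libraries. The mean log2 ratio was 5.52 ± 0.18 in WT and 5.61 ± 0.24 in S100a16KO+/- (SD, n = 3), a difference of 0.09 that lies within the spread of either genotype and turned to -0.04 without S100a16KO+/- replicate 2. Within complexes the difference of log2 ratios ranged from 0.07 for complex I to 0.14 for complexes III and IV, with overlap in each. In WT libraries mt-Co1, the catalytic subunit of complex IV, stood highest at 38630 ± 3064 FPKM, followed by mt-Cytb of complex III at 18205 ± 1684. The next pair, mt-Atp8 and mt-Atp6 of complex V, stood at 15543 ± 2086 and 15120 ± 1256, with mt-Atp8 above mt-Atp6 in WT replicate 1 only. Means of mt-Co2, mt-Nd1, mt-Nd2 and mt-Co3 lay between 12413 and 11656, with mt-Co2 above mt-Co3 in every WT library. Differences between genes were not tested. The complex I transcripts mt-Nd4, mt-Nd5, mt-Nd4l and mt-Nd6 followed between 9081 and 7136, and mt-Nd3 was lowest at 3007 ± 205. RNA was purified with oligo(dT), and whether its capture differed between transcripts was not tested. FPKM here divides by the length of all annotated exons of a gene joined together, retained introns included, so nuclear genes with such transcripts are set lower than their mature messenger would be.

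The lowest fold changes among mitochondrial genes were those of mt-Nd6 and mt-Nd5, both membrane subunits of complex I. The counts of mt-Nd6 were 307255, 282123 and 270943 in WT and 224305, 262562 and 230946 in S100a16KO+/- libraries (log2 fold change -0.24, SE 0.10, adjusted p = 0.154). Those of mt-Nd5 were 1289724, 1171131 and 1092079 against 952060, 1076248 and 968672 (log2 fold change -0.23, SE 0.10, adjusted p = 0.177). In raw counts and in FPKM both genes were lower in all 3 S100a16KO+/- libraries than in any WT library, and after TMM scaling the libraries overlapped. The log2 fold changes of mt-Co1 (-0.18, SE 0.14, adjusted p = 0.483) and mt-Nd4l (-0.15, SE 0.12, adjusted p = 0.45) came next. Those of mt-Co2, mt-Nd1, mt-Atp8, mt-Nd4, mt-Nd2, mt-Cytb, mt-Nd3, mt-Co3 and mt-Atp6 lay between -0.09 and -0.02, with adjusted p values from 0.659 to 0.963.

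A pair of libraries set the spread of this group. WT replicate 1 and S100a16KO+/- replicate 2 were the highest of their genotype for 13 of 13 mitochondrial members, and both lay above the other 4 libraries for 13 of 13, which was so for 6.42% of all genes tested. Both lay below the other 4 libraries for 13 of 92 nuclear members (14.1%, against 6.27% of all genes), namely Ndufa2, Ndufb2, Ndufb6, Ndufb11, Ndufc1, Ndufs6, Ndufs7, Ndufs8, Ndufv1, Cox6c, Cox7a2, Atp5e and Atp5g3. None of these 13 was called between genotypes, but the order they were picked by keeps the genotypes from being apart and so works against a call. Atp5e, the small epsilon subunit of complex V, shows this order, with 2146, 2947 and 3053 counts in WT and 2908, 1531 and 3157 in S100a16KO+/- libraries (log2 fold change -0.10, SE 0.30, adjusted p = 0.863). Cox7a2, the general form of its subunit, had 2533, 3604 and 3771 counts against 3507, 2048 and 3437 (log2 fold change -0.14, SE 0.25, adjusted p = 0.775). S100a16KO+/- replicate 2 was the lowest of its genotype for 57 of 92 nuclear members (62.0%, against 36.6% of all genes).

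When both libraries were left out, an alternative chosen after seeing these very transcripts, 2 libraries per genotype remained. Nuclear members then gave 33 calls, all lower, where 10.8% of all genes were called lower, with 25 of the 31 calls among them and a median log2 fold change of -0.17. Mitochondrial members gave 9 calls, all lower, with a median of -0.11. In that fit mt-Nd6 had a log2 fold change of -0.31, mt-Nd5 of -0.27 and mt-Co1 of -0.19, each with an SE of 0.03, and mt-Nd3, mt-Cytb, mt-Co3 and mt-Atp6 were not called. The omitted libraries were the highest of their genotype for 13 of 13 mitochondrial members, so leaving them out narrows the spread by choice. The mitochondrial calls and standard errors of this fit are therefore not read as a test. Without S100a16KO+/- replicate 2 alone, 3 mitochondrial members were called (mt-Nd4l, mt-Nd5 and mt-Nd6) and the median was -0.21, while without WT replicate 1 alone 0 were called and the median was 0.05. The direction of the mitochondrial group thus rests on which libraries enter, whereas the nuclear median was below 0 in all of these fits.

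**Figure D4:**
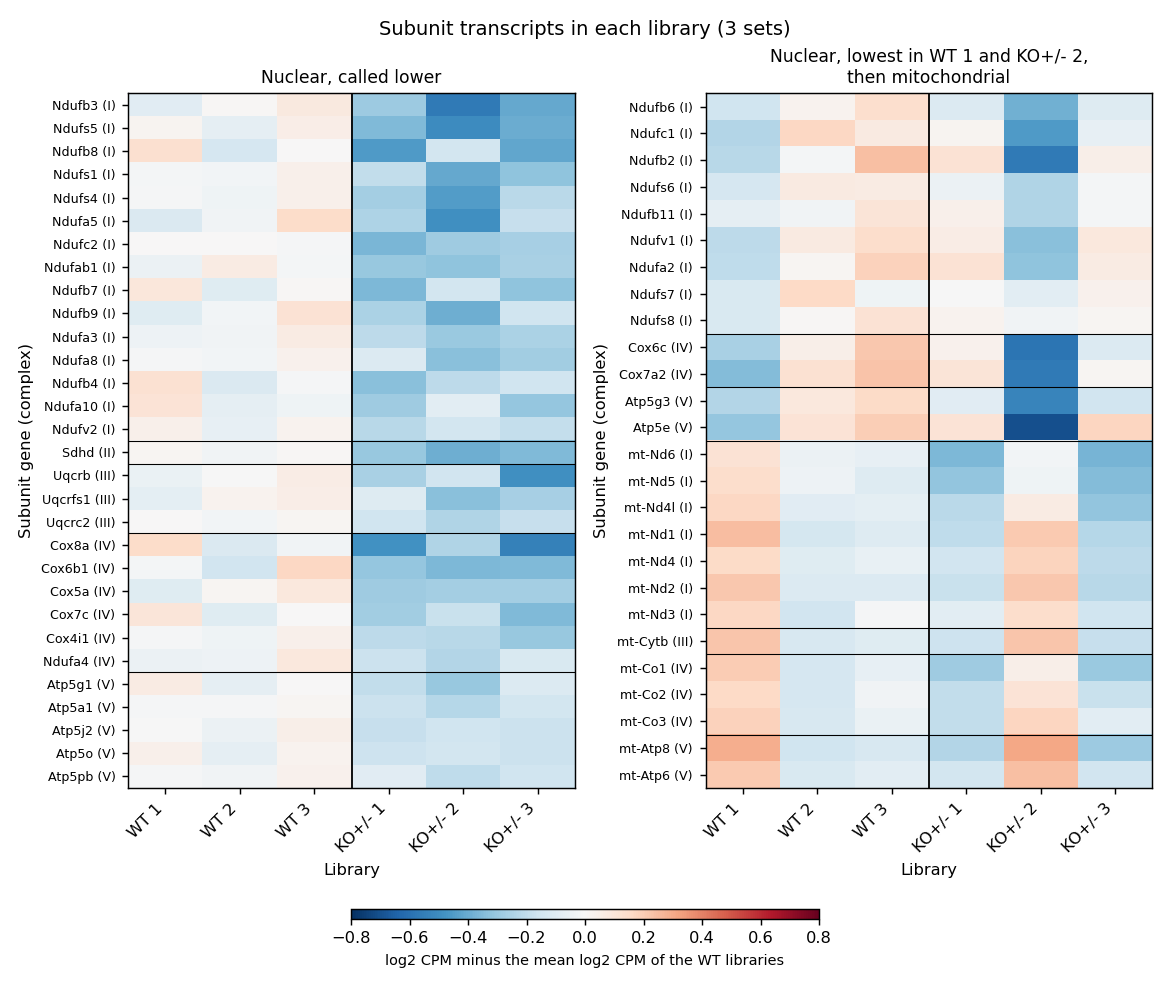
Log2 CPM minus the mean log2 CPM of the WT libraries (colour scale) for subunit transcripts (rows, complex in brackets) in 6 libraries (columns, KO+/- is S100a16KO+/-). On the left are the 30 nuclear subunits called lower, which are bluer in the KO+/- columns. On the right are the 13 nuclear subunits chosen for being lowest in WT replicate 1 and KO+/- replicate 2, and the 13 mitochondrial genes, which are reddest in these same libraries.

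The make-up of the mitochondrial transcripts was described by the share of each gene in the counts of all 13, which does not depend on library scaling. For 8 of 13 genes these shares were apart by genotype, where 37.9% of all genes tested were apart in CPM in either direction, a background for a level and not for a share. In all, 3 genes had all WT libraries above all S100a16KO+/- libraries, 5 had the reverse order and 5 overlapped. The share of mt-Nd5 was 8.64%, 9.46% and 8.82% in WT and 8.44%, 8.05% and 8.34% in S100a16KO+/- libraries. For mt-Nd6 it was 2.06%, 2.28% and 2.19% against 1.99%, 1.96% and 1.99%, and for mt-Co1 35.1%, 34.5% and 35.3% against 33.7%, 33.2% and 33.7%. Of those that gained share, mt-Atp6 took 6.08%, 6.01% and 5.99% in WT against 6.38%, 6.55% and 6.42%, and mt-Cytb 12.4%, 12.1% and 12.0% against 12.7%, 13.1% and 12.7%. The shares of mt-Nd2, mt-Nd4 and mt-Co3 also stood higher in every S100a16KO+/- library. No test is given for these shares, and since they belong to a fixed total, a gain of some genes follows from the loss of others.

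**Figure D5:**
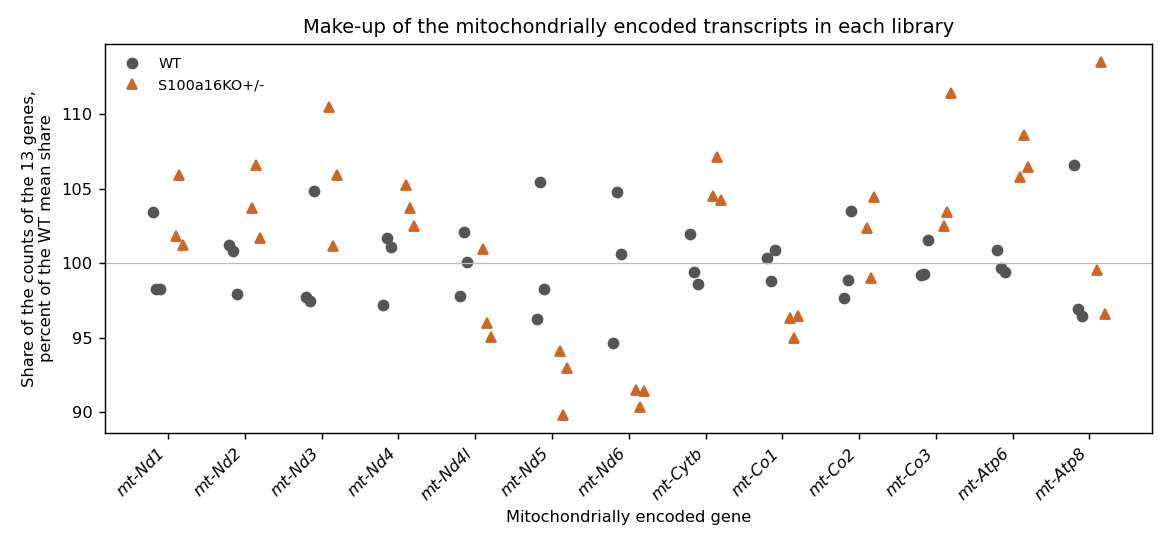
Share of each mitochondrially encoded gene in the counts of all 13, as percent of its WT mean share (y axis), in 3 WT (circles) and 3 S100a16KO+/- (triangles) libraries. Genotypes are apart for mt-Nd5, mt-Nd6 and mt-Co1, which are lower in S100a16KO+/-, and for mt-Nd2, mt-Nd4, mt-Cytb, mt-Co3 and mt-Atp6, which are higher.

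The same counts were also set out as ratios between complex I transcripts, which show the split again within each library and are no separate result. The FPKM of mt-Nd6 over that of mt-Nd4 was 0.766, 0.811 and 0.783 in WT and 0.684, 0.685 and 0.702 in S100a16KO+/- libraries, and mt-Nd5 over mt-Nd4 was 0.915, 0.958 and 0.898 against 0.825, 0.799 and 0.837. Neither ratio overlapped between genotypes, and WT replicate 1 lay above all S100a16KO+/- libraries in both. These pairs were chosen after the values were seen, so no test is given. Whether mt-Nd5 and mt-Nd6, which overlap on opposite strands, changed separately was not tested.

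The mitochondrial genes lie so close that some share bases, which bears on how reads were divided among them. Of 4 such overlaps the 3 longer ones are given as read from the GENCODE M21 transcripts on the forward strand of mm10, with capitals for the first and last 3 bases, which are a start codon (ATG), a stop codon (TAA) or the stop codon of a gene on the reverse strand (TTA).
mt-Atp8 and mt-Atp6, chrMT:7927-7969: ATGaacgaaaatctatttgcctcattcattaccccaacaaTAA
mt-Nd4l and mt-Nd4, chrMT:10167-10173: ATGcTAA
mt-Nd5 and mt-Nd6, chrMT:13552-13565: TTAatctcgagTAA
The first overlap covers 43 bases of genes on the same strand and the second 7. The fourth, of mt-Atp6 and mt-Co3 on the same strand, is the single base 8607. The third covers 14 bases of genes on opposite strands, where mt-Nd6 is the only one of the 13 on the reverse strand (mt-Nd5 at chrMT:11742-13565, mt-Nd6 at chrMT:13552-14070). The library protocol marks the strand, but whether counting used it is not given in the sources used here, so mt-Nd6 counts may hold reads from the opposite strand. Of the nuclear members, 5 have exons that overlap a gene on the same strand (Ndufb2, Ndufb8, Ndufb9, Atp5g2 and Atp5o) and 29 a gene on the opposite strand.

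Genes that control, read or complete the respiratory chain without being members were counted in 11 lists, whose shares called in either direction are to be read against the 22.8% of all genes. Among 11 regulators of mitochondrial biogenesis 3 were called lower and 1 higher (36.4%). Ppargc1a, the coactivator PGC-1 alpha that switches on respiratory genes as well as the fasting programme of the liver, had 511, 432 and 467 counts in WT and 1829, 1762 and 1843 in S100a16KO+/- libraries. It rose from 6.81 ± 0.673 to 26.5 ± 0.916 CPM (log2 fold change 1.96, SE 0.09, adjusted p = 2.44e-09), opposite in sign to the nuclear members. Nrf1 and Gabpa, transcription factors that bind many promoters of respiratory genes, had log2 fold changes of -0.40 (SE 0.13, adjusted p = 0.0444) and -0.31 (SE 0.06, adjusted p = 0.00316). Nrf1 counts were 540, 452 and 509 against 370, 324 and 438, and those of Gabpa 2448, 2525 and 2460 against 1927, 1984 and 2047, both without overlap.

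For copying and transcription of mitochondrial DNA, 2 of 16 genes were called lower and 0 higher. This share of 12.5% lies below the 22.8% of all genes called in either direction and near the 11.2% called lower. They were Tfam, which packs and helps to transcribe the mitochondrial genome (1727, 1894 and 1814 counts against 1652, 1256 and 1532, log2 fold change -0.28, adjusted p = 0.0231), and Mterf2 (-0.66, adjusted p = 0.0215), which binds mitochondrial DNA. Tfam is in both lists and is also counted among the regulators of biogenesis called lower. Of 19 genes for processing and stability of mitochondrial RNA, 4 were called lower and 1 higher. The share called in either direction was 26.3%, against 22.8% of all genes, and the share called lower 21.1%, against 11.2%. Hsd17b10, a part of the mitochondrial RNase P that cuts the precursors and also an enzyme of isoleucine breakdown, fell from 9454, 9118 and 9554 counts to 5693, 5779 and 6305 (log2 fold change -0.65, SE 0.06, adjusted p = 1.24e-06). Fastkd1 and the RNA-degrading Pnpt1 were lower as well (-0.39 and -0.34, adjusted p = 0.0135 and 0.00778).

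Assembly factors outside the named families were called for complexes I, III and IV. Complex IV had 5 of 19 called lower and 0 higher (26.3%, against 22.8% of all genes called in either direction and 11.2% called lower). They were led by Cox20 (653, 546 and 496 counts against 293, 363 and 323, log2 fold change -0.78, SE 0.15, adjusted p = 0.00181), which escorts the newly made subunit 2, and Taco1 (817, 721 and 886 against 490, 435 and 538, log2 fold change -0.72, SE 0.11, adjusted p = 3.33e-04), which aids translation of mt-Co1. Coa6, a factor of copper delivery, stood at -0.45 (adjusted p = 0.00259). Complex I had 3 of 8 called lower and 1 higher (50%), with Tmem126b at -0.50 (adjusted p = 0.00234), Tmem186 at -0.43 (adjusted p = 0.00551) and Acad9 at -0.29 (adjusted p = 0.0288). Complex III had 1 of 6 called lower (16.7%), Uqcc1 at -0.34 (adjusted p = 0.00634). By edgeR 0 of 4 factors of complex II and 0 of 5 of complex V were called, with 1 in each at an unadjusted p under 0.05, against 33.6% of all genes.

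Of 8 genes for uncoupling and alternative electron entry, 5 were called lower and 0 higher (62.5%). Etfdh, which passes electrons from fatty acid oxidation to coenzyme Q, had 13400, 13141 and 13679 counts in WT and 7832, 7282 and 8181 in S100a16KO+/- libraries (log2 fold change -0.78, SE 0.05, adjusted p = 5.76e-08). Gpd2, the mitochondrial glycerol phosphate dehydrogenase, stood at -0.58 (adjusted p = 4.12e-05) and Etfb, a partner of Etfdh, at -0.36 (adjusted p = 7.19e-04). Among 14 genes for mobile carriers and their synthesis 2 were called lower and 1 higher, a share of 21.4% that does not exceed the background. Cycs, the somatic cytochrome c, fell from 4114, 3750 and 4022 counts to 3083, 2942 and 3115 (-0.37, SE 0.06, adjusted p = 5.33e-04), and Coq8a of coenzyme Q synthesis had a value of -0.20 (adjusted p = 0.0134). Coq10b, a coenzyme Q-binding protein, rose from 1821, 2099 and 2050 to 4432, 3973 and 4435 counts (1.12, SE 0.06, adjusted p = 1.17e-08). Of 10 genes for supercomplexes and cristae, the folds of the inner membrane, 4 were called lower and 0 higher (40%), with Apoo (-0.36, adjusted p = 0.0228), Micos10 (-0.34, adjusted p = 0.013) and Opa1 (-0.27, adjusted p = 0.00252) the lowest.

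Promoters were compared by the short motifs of 3 factors known for respiratory genes, over the 300 bases from 250 before to 50 after the start of a gene in RefSeq (GRCm38.p6). Of the 93 nuclear members 74 had an entry. The NRF1 motif, the letters GCGCA and GCGC with 1 free base between them, read on both strands like the others, was present in 19 of 74 (25.7%), against 10.7% of 11022 promoters of tested genes and 5.19% of all 27025. The YY1 motif AANATGGCG was present in 11 (14.9%, against 5.55% of tested genes) and the ETS motif CCGGAAGT, bound by Gabpa, in 5 (6.76%, against 8.40%). Within the members, NRF1 was matched in 6 of 25 that were called lower and in 13 of 49 that were not. These matches describe letters and not binding, and a missing match says only that the letters are not in this window.

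Of 11 promoters of called members read in full, 4 held a match and 7 (Ndufb3, Ndufb8, Uqcrfs1, Cox5a, Cox6b1, Cox6b2 and Atp5g1) held none. Those of Sdhd and Ndufs5, each with 1 NRF1 match, and of Cox8a, with 2 ETS matches on the reverse strand, are given 5′ to 3′ in the direction of the gene because they show these motifs, and that of Ndufb3, the most reduced subunit of complex I, is given as one without a match. The fourth match was a YY1 motif in Atp5j2. Capitals mark the matches. Ndufb3 lies on the plus strand and the others on the minus strand.
Sdhd, chr9:50603800-50604099: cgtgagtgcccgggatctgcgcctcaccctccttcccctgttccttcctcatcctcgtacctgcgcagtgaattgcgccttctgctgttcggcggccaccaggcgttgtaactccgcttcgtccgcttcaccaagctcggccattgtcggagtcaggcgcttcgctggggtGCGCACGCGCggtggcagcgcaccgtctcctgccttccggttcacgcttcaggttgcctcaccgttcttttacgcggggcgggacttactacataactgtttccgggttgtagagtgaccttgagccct
Ndufs5, chr4:123718137-123718436: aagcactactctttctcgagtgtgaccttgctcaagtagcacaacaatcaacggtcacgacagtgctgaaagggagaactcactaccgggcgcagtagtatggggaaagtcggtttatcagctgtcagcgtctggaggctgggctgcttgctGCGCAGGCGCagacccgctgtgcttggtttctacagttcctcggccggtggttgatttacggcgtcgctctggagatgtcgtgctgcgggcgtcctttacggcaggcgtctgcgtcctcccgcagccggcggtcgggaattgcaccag
Cox8a, chr19:7217567-7217866: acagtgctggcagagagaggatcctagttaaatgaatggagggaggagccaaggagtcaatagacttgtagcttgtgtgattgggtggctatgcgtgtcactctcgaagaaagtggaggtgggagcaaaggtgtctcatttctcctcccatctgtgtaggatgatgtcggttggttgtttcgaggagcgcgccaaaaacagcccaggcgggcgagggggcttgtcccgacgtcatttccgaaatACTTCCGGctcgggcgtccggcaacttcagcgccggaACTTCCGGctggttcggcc
Ndufb3, chr1:58586147-58586446: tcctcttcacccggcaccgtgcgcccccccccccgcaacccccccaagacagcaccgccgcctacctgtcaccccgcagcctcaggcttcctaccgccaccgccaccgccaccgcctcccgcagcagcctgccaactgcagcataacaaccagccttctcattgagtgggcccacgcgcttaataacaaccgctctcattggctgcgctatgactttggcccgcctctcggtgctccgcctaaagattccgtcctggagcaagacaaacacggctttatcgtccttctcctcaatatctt
Of the members matched, 33 of 74 (44.6%) held at least 1 of the 3 motifs, against 22.3% of tested genes, with 9 of 25 among the called members and 24 of 49 among the others.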

How the data were processed

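RNA of primary hepatocytes, isolated by collagenase perfusion, was purified with oligo(dT), tagged with molecular identifiers and sequenced in pairs. The submitters' processing notes name cutadapt 1.9, UMI-tools, HISAT2 2.0.4, StringTie 1.3.4d, DESeq2, edgeR and the build mm10; roles and gene annotation are not given in the sources used here. The authors deposited estimated counts, here rounded, of which about 4 make 1 fragment, and FPKM per gene for 6 libraries. Columns of other samples numbered 0, and the authors' fold change, p-value and significance columns were not used.

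Counts were scaled by TMM, filtered with filterByExpr and tested with edgeR 4.0.16 (quasi-likelihood, robust, two-sided, R 4.3.3) over 15957 genes, with Benjamini-Hochberg adjustment and calls at an adjusted p under 0.05. The standard error is the fold change over the root of F. CPM values use the same scaling (total counts alone for summed markers), and libraries described as apart were compared in CPM. Alternatives used DESeq2 1.42.0, limma 3.58.1 (voom, and trend on log2(FPKM + 1) or log2(FPKM + 0.1)), other scalings and filters, a replicate block and omission of each library. Scripts were tested on simulated data. The precision of each value is limited by 3 libraries per genotype.

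Named genes were S100a16, all mitochondrial members, the subunit of highest FPKM and up to 3 called subunits of largest change in each complex, called assembly factors, the isoforms and up to 3 called genes of each list. Other genes named were chosen after their values were seen. Members and lists were chosen with earlier results of these data known. All 106 members matched GENCODE M21 by identifier, 92 with the same start and end. A result for 1 gene is not reported here.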

Additional observations from a re-analysis of the deposited data

How the results depend on the processing

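The median log2 fold change of nuclear-encoded members stayed below 0 in every fit, from -0.22 to -0.15 with 1 library left out, and that of mitochondrially encoded members ranged from -0.21 to 0.05. Nuclear calls numbered 17 with total counts only, 15 on log2(FPKM + 1), 14 on log2(FPKM + 0.1), and 14 to 27 with 1 library left out. With a fold change of at least 2 and an unadjusted p under 0.05, a rule that 4.52% of all genes passed, 1 nuclear member (Cox6b2) and 0 mitochondrial members remained. Other fits gave 24 to 37 nuclear calls, all lower except Cox7a2l with a filter at a mean of 10 CPM. Mitochondrial calls numbered 2 (mt-Nd5 and mt-Nd6) with DESeq2, with both FPKM fits and with total counts only, 0 to 3 with 1 library left out and 0 in the other fits. With 2 libraries per genotype they numbered 9, which is not read as a test because these same transcripts decided which libraries were omitted. Calls over the whole table fell from 3643 to 2208 and 2228 in the FPKM fits and 721 by the fold rule, and to 2734 to 3302 with 1 library left out. The log2 ratio of mitochondrially to nuclear-encoded FPKM ranged from -0.04 to 0.20 with 1 library left out.

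With the replicate number as a block, nuclear calls numbered 24, mitochondrial calls 0 and calls over all genes tested 3082. Deviations of libraries with the same number correlated at -0.26, -0.11 and 0.12. Since only the last exceeds the 0.1 required of every pair, the numbers were not read as pairs. Across numbers, WT replicate 1 with S100a16KO+/- replicate 2 stood highest, at 0.31.

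Ndufb9, Uqcrc2, Uqcrfs1, Atp5a1, Atp5g1 and Atp5j2 lost their calls with total counts only and in both FPKM fits (adjusted p from 0.0898 to 0.155). Of the mitochondrial genes, mt-Atp6 had a log2 fold change of 0.015 with the filter at 10 CPM and was not called there. With 1 library left out, log2 fold changes ranged from -0.23 to 0.062 for mt-Nd1, -0.21 to 0.060 for mt-Nd2, -0.13 to 0.050 for mt-Nd3, -0.19 to 0.024 for mt-Nd4, -0.18 to 0.081 for mt-Cytb, -0.15 to 0.063 for mt-Co3, -0.16 to 0.096 for mt-Atp6 and -0.28 to 0.097 for mt-Atp8, and from -0.85 to 0.032 for Ndufa4l2, whose counts are low. The cause of these differences was not tested. With about 4 counts to a fragment, members under about 100 counts rest on few fragments.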
